A study of Mus musculus with 24 samples.

Results

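Loss of the microRNA miR-142 was followed in the mRNAs of 9 genes that have been reported in blood cells as its targets and that build or steer the actin cytoskeleton or carry signals from the cell surface: Wasl, Twf1, Cfl2, Rock2, Rac1, Itgav, Gnaq, Adcy9 and Tgfbr1. They were picked by symbol from the 24091 genes of the read count table, and all 9 were among the 13520 genes with enough counts to be tested. The cells were LSKs, the lineage-negative Sca-1+ c-Kit+ fraction of mouse bone marrow that holds haematopoietic stem cells and early progenitors, sorted from 24 mice and measured by bulk RNA-seq. There were 4 groups of 6 mice, each with 3 females and 3 males. WT mice carried both copies of miR-142 (miR-142+/+) and miR-142 KO mice carried none (miR-142-/-), and neither group had BCR-ABL. CP CML mice were miR-142+/+ and BC CML mice miR-142-/-, and in both BCR-ABL, the fusion kinase of chronic myeloid leukaemia, had been switched on for 2 weeks by withdrawing tetracycline. CP and BC stand for chronic phase and blast crisis, the early and the late form of that leukaemia. Here the names stand for the genotypes, as in the paper, and not for a stage seen in each mouse. The paper places the first circulating blasts of miR-142-/- BCR-ABL mice later than 2 weeks after induction. Its methods nevertheless describe such mice, treated from about 2 weeks after induction, as already transformed to blast crisis. All mice were on the C57BL/6 background; their ages are not in the labels. Expression of BCR-ABL in this model depends on a transactivator under SCL regulatory elements, so it is confined by design to cells that use them, whereas the miR-142 deletion was carried by every cell of the mouse.

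A microRNA is loaded into an Argonaute protein and pairs through its seed, bases 2 to 8, with sites mostly in 3′ untranslated regions (UTRs), which shortens the life of the mRNA and lowers its translation. MiR-142 is among the most abundant microRNAs of blood cells, and its hairpin gives rise to both a 3p and a 5p mature strand. Actin filaments are nucleated by the Arp2/3 complex, severed and recycled by cofilins and twinfilins, and put under tension by myosin, while Rac, integrins, heterotrimeric G proteins and the TGF-beta receptor connect this machinery to the outside of the cell.

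The mature strands of mouse miR-142 and sites that match the 3p seed in the members are printed here, all of them except 2 of the 4 in Wasl, because the members differ in how many such sites they have and of which kind. The microRNA sequences are those of RefSeq (GRCm38.p6), written 5′ to 3′ with the seed in capitals; they lie on the plus strand of chromosome 11, at chr11:87756903-87756925 for 3p and chr11:87756867-87756887 for 5p.
mmu-miR-142a-3p: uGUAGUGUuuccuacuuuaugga
mmu-miR-142a-5p: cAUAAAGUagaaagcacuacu

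For each gene the longest 3′ UTR of a protein-coding GENCODE M21 transcript (GRCm38, the same assembly as mm10) was read for ACACTAC (a 7mer-m8 site, the match to bases 2 to 8), CACTACA (a 7mer-A1 site, the match to bases 2 to 7 followed by A) and ACACTACA (an 8mer, which holds both and was counted once), on the strand of the mRNA. Of the 9 members 8 had a 3p site, and 7 of these had an 8mer; among all 12612 tested genes with such a UTR, 11.9% had a 3p site of any kind and 3.09% an 8mer. The members were chosen as reported targets, so this contrast is a description and no test. Their UTRs ran from 369 bases in Adcy9 to 4154 in Tgfbr1, where the median of all such UTRs was 1178. Capitals mark the site in the lines that follow, all of them from 3′ UTRs and all inside the gene models of the deposited table.
Wasl 7mer-m8, chr6:24616226-24616254, minus strand: tgaaatactaaACACTACttcctgtctat
Wasl 7mer-A1, chr6:24615754-24615782, minus strand: tagacaccactCACTACActaatgcagtt
Twf1 8mer, chr15:94578180-94578209, minus strand: tgaagcctagtACACTACAtcgaagtcaat
Cfl2 7mer-m8, chr12:54860453-54860481, minus strand: ccgatgagtgtACACTACtgtataattta
Cfl2 8mer, chr12:54860412-54860441, minus strand: tgagtcttgaaACACTACAgatattttgaa
Rock2 8mer, chr12:16984895-16984924, plus strand: gtcataaagtcACACTACAttgcacaggac
Rock2 7mer-A1, chr12:16984998-16985026, plus strand: ggagtgaatccCACTACAgcgatgctgac
Rac1 8mer, chr5:143506235-143506264, minus strand: gagattactttACACTACAttgtacatgga
Itgav 8mer, chr2:83803768-83803797, plus strand: aggtacacattACACTACAgttgacttcat
Gnaq 8mer, chr19:16384339-16384368, plus strand: tacgccaacagACACTACAttccccagcag
Tgfbr1 8mer, chr4:47414863-47414892, plus strand: atttcatcctaACACTACAgtagaaaatgg

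Wasl had the most 3p sites, 4, of which 3 were 7mer-A1, and no 8mer. Cfl2 and Rock2 had 2 each, an 8mer with a 7mer in both genes. The remaining 5 had a single 8mer, which in Tgfbr1 begins at base 4097 of a UTR of 4154 bases and in Itgav at base 444 of 3581. In Adcy9 the UTR read was only 369 bases long and held neither a 3p nor a 5p site; the deposited gene model runs 2643 bases further at that end, and that stretch was not searched here. Matches to the 5p seed (ACTTTAT for a 7mer-m8 site, CTTTATA for a 7mer-A1 site, and ACTTTATA for an 8mer that holds both, again on the strand of the mRNA) were found in 4 members, with 2 in Rac1 and Tgfbr1 and 1 in Cfl2 and Rock2, against 23.4% of all UTRs with at least 1.

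Between 16267965 and 24687077 reads per library were assigned to genes, the lowest total being that of CP CML replicate 1. Levels are given as CPM, the read count of a gene relative to the library total, scaled by the trimmed mean of M values (TMM), with factors of 0.944 to 1.06. The Mir142 row held 68 to 153 counts in the 12 miR-142+/+ libraries and 0 in all 12 miR-142-/- libraries, where a count of 0 allows up to 3 counts for counting error alone. The 10 genes listed as markers of the LSK gate, Kit and Ly6a among them, summed to 2633 to 3179 CPM in miR-142 KO against 3409 to 4693 in WT, and to 2497 to 2860 in BC CML against 3118 to 3643 in CP CML. Ly6a itself rose on loss of miR-142, by 1.15 on the log2 scale in normal and 1.09 in BCR-ABL LSKs. Kit gave -0.22 (edgeR adjusted p = 0.0655) in normal LSKs and fell by 0.46 in BCR-ABL LSKs, while Flt3 fell by 1.23 in both. Markers of other blood cells were counted beside 19.9% higher and 16.4% lower among all tested genes in miR-142 KO against WT. In BC CML against CP CML these shares were 20.4% and 17.6%. In miR-142 KO against WT 8 of 11 tested megakaryocyte and platelet markers rose and 1 fell, and 6 of 12 mast cell or basophil markers rose and 0 fell. In BC CML against CP CML 1 megakaryocyte and platelet marker rose and 2 fell, and 7 mast cell or basophil markers rose and 1 fell. The 1 that fell was Kit, which is also in the list of the LSK gate. The megakaryocyte sum spanned 296 to 866 CPM in miR-142 KO and 302 to 426 in WT, and 362 to 527 in BC CML and 375 to 501 in CP CML. The mast cell or basophil sum spanned 1374 to 3913 CPM in miR-142 KO and 1291 to 1683 in WT. It spanned 7091 to 14029 in BC CML and 3340 to 5846 in CP CML. This sum includes Kit and Gata2, with means of 936 and 202 CPM in WT, and so does not measure mast cells alone. Cma1, Tpsb2 and Mcpt4 had WT means of 2.35, 2.34 and 1.37 CPM and did not pass in normal LSKs. Their CP CML means were 572, 651 and 225 CPM. Of 11 tested mature neutrophil markers 7 rose and 0 fell in miR-142 KO, with sums of 62.5 to 237 CPM against 17.01 to 74.0 in WT, and 2 rose and 3 fell in BC CML, with sums of 69.1 to 166 CPM against 62.0 to 98.0 in CP CML. B lineage markers fell in 3 of 10 tested in miR-142 KO and in 4 of 10 in BC CML. B lineage markers summed to 28.7 to 40.9 CPM in BC CML against 174 to 794 in CP CML, and to 27.8 to 48.7 in miR-142 KO against 72.1 to 982 in WT. Of the other lists, T or NK cell markers rose in 4 and fell in 2 of 7 tested in normal LSKs, and erythroid markers fell in 2 of 9. Monocyte or macrophage markers rose in 2 (Ly6c2 and Ms4a6c) and fell in 4 of 12 (Mrc1, C1qa, C1qb and C1qc). Stromal or endothelial markers rose in 1 (Pecam1) and fell in 2 of 8 (Cdh5 and Emcn). In BCR-ABL LSKs 1 T or NK cell marker rose and 2 fell, and 0 erythroid markers rose and 4 fell. There 1 monocyte or macrophage marker fell (Mrc1), and 1 stromal or endothelial marker rose (Pecam1) and 3 fell (Cdh5, Emcn and Pdgfrb). No marker of these lists was at 0 throughout a group. Fewer cells of a type and less RNA per cell cannot be told apart in bulk samples, and the part of these shifts in the results for the 9 genes was not tested.

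In miR-142 KO against WT LSKs, which asks what losing miR-142 does in normal cells, 7 of the 9 genes rose (Wasl, Twf1, Cfl2, Rac1, Itgav, Gnaq and Tgfbr1) and Rock2 and Adcy9 did not pass the test. The increases ran from 1.27-fold in Gnaq to 2.85-fold in Cfl2. Among all tested genes 19.9% rose and 16.4% fell in this comparison, by edgeR's quasi-likelihood test at a Benjamini-Hochberg adjusted p of 0.05 over the 13520 genes. In BC CML against CP CML LSKs, which asks the same in cells with BCR-ABL, 8 rose and Adcy9 did not pass, against 20.4% higher and 17.6% lower among all tested genes; the increases ran from 1.14-fold in Rock2 to 4.13-fold in Cfl2. The median log2 fold change of the 9 was 0.73 in normal and 0.84 in BCR-ABL LSKs, where that of all tested genes was 0.01 both times. These comparisons share no library. No member fell by this test in either; at an unadjusted p of 0.05 the number lower was 0 in normal and 1 (Adcy9) in BCR-ABL LSKs, and DESeq2 called 0 and 1 lower. The 6 miR-142 KO libraries lay wholly above the 6 WT libraries for 6 members, where 8.32% of tested genes did so, and the BC CML libraries lay wholly above the CP CML libraries for 7, where 11.4% did so.

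**Figure D1:**
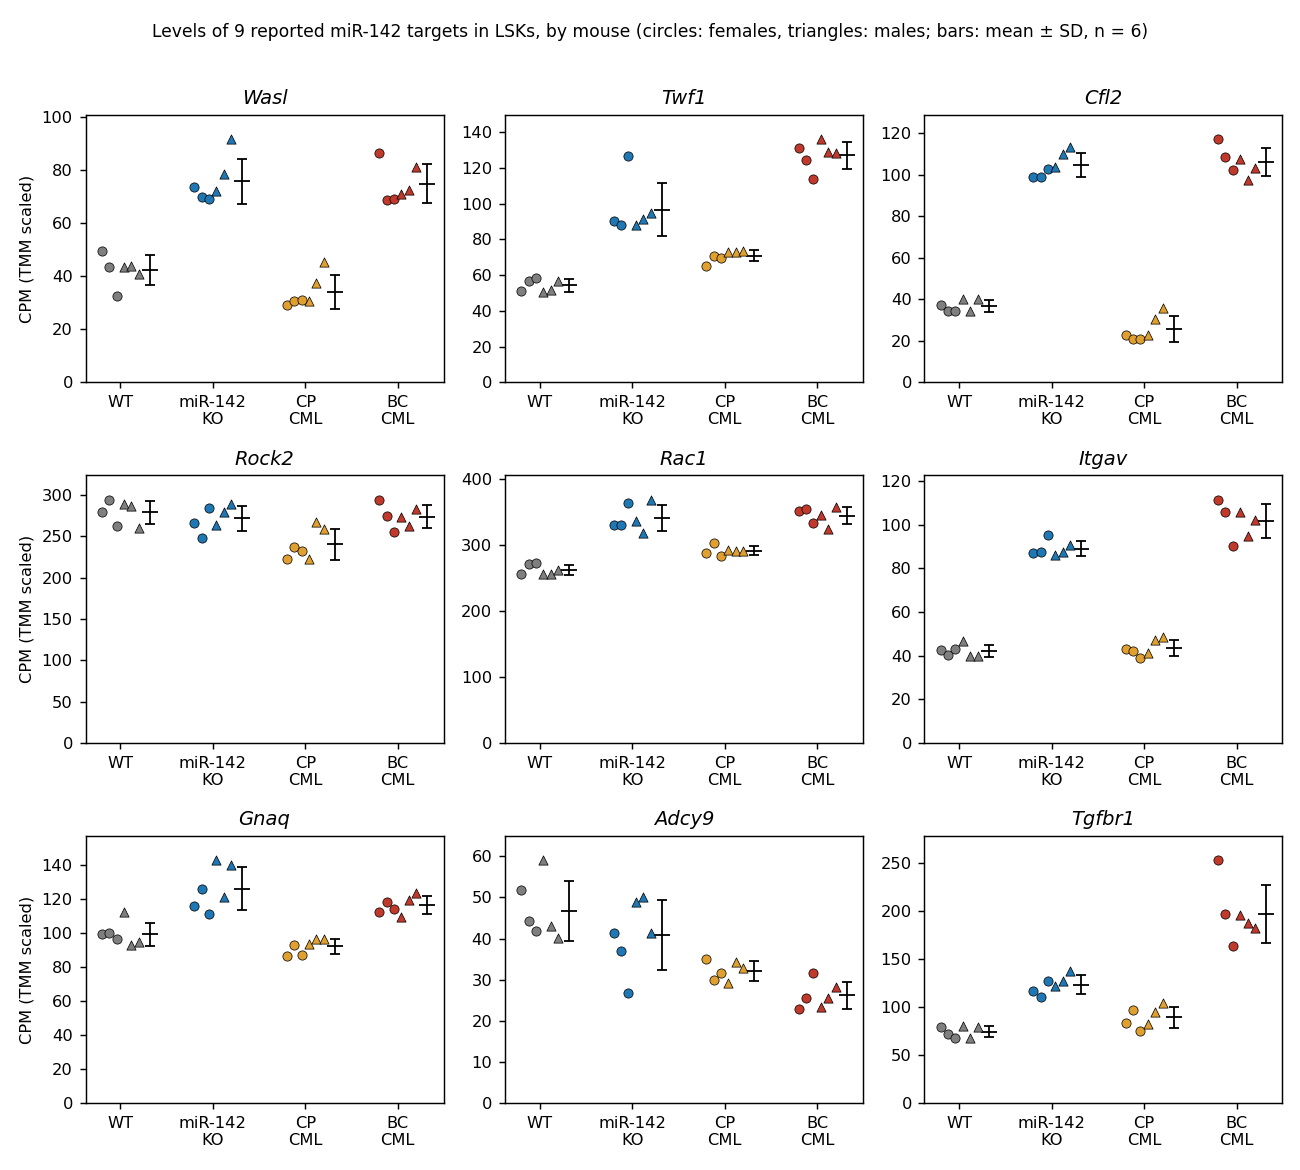
Level of each of the 9 genes in every mouse, in TMM-scaled CPM on axes that start at 0, with females as circles, males as triangles and the mean ± SD of 6 mice as the bar beside each group. For Wasl, Twf1, Cfl2, Rac1, Itgav and Tgfbr1 every miR-142 KO mouse lies above every WT mouse and every BC CML mouse above every CP CML mouse; Gnaq does so with BCR-ABL but not without, and Rock2 and Adcy9 overlap in both.

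Wasl (chr6:24613810-24664995) encodes N-WASP, which switches on the Arp2/3 complex under Cdc42. Its level was lowest at 32.7, median 43.6 and highest at 49.6 CPM in WT and 69.0, 73.0 and 91.8 in miR-142 KO. In CP CML it was 29.0, 30.9 and 45.5 CPM, and in BC CML 68.8, 71.8 and 86.7. The groups with and without miR-142 did not overlap on either background, and the medians of the miR-142-/- groups were close to each other. The log2 fold change was 0.84 (SE 0.10, edgeR adjusted p = 1.36e-06) in normal and 1.13 (SE 0.11, edgeR adjusted p = 1.82e-08) in BCR-ABL LSKs.

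Twf1 (chr15:94577948-94589824) encodes twinfilin 1, which binds actin monomers and filament ends. WT libraries held 50.3 to 58.3 CPM (median 54.2) and miR-142 KO libraries 88.1 to 126 (median 90.6), the highest, a female, standing apart from the next at 94.9. CP CML libraries held 65.3 to 73.5 CPM (median 71.7) and BC CML libraries 114 to 136 (median 129). Twf1 stepped up with each change: the 4 groups kept the order WT, CP CML, miR-142 KO, BC CML, and among neighbours only miR-142 KO and BC CML overlapped. Its log2 fold changes on loss of miR-142 were nearly equal, 0.83 (SE 0.07, edgeR adjusted p = 6.31e-09) and 0.84 (SE 0.07, edgeR adjusted p = 3.57e-09).

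Cfl2 (chr12:54858819-54862877) encodes cofilin 2, the cofilin best known from muscle, which severs and depolymerizes filaments. It showed the largest change of the 9 genes on both backgrounds. WT libraries held 34.1 to 40.0 CPM (median 35.8) and miR-142 KO libraries 98.8 to 113 (median 103). In CP CML its level was 20.8 to 36.0 CPM (median 22.8) and in BC CML 97.2 to 117 (median 105). The miR-142-/- groups met at the same level, and the 5 lowest CP CML libraries, all but the male of replicate 6, lay below every WT library. The log2 fold change was 1.51 (SE 0.10, edgeR adjusted p = 9.52e-11) in normal and 2.05 (SE 0.10, edgeR adjusted p = 3.61e-13) in BCR-ABL LSKs, and 2.18% and 0.969% of all tested genes had a higher value.

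Rock2 (chr12:16894978-16988274) encodes a kinase that activates myosin and, through LIM kinases, restrains cofilins. It was the member with an 8mer that moved least. Its level was 260 to 294 CPM (median 283) in WT and 248 to 290 (median 273) in miR-142 KO, groups that overlapped almost fully, with a log2 fold change of -0.04 and a 95% interval of -0.14 to 0.07. In CP CML it was 223 to 268 CPM (median 235) and in BC CML 256 to 294 (median 274). The log2 fold change there was 0.19 (SE 0.05, edgeR adjusted p = 0.00576), with CP CML replicates 5 and 6 inside the BC CML range. The test was not passed in females alone (0.24, edgeR adjusted p = 0.0526) or in males alone (0.12, edgeR adjusted p = 0.250). In CP CML against WT Rock2 fell by 0.21 on the log2 scale (edgeR adjusted p = 0.00179), so that the BC CML level (mean 274 CPM) came close to that of WT (mean 279 CPM).

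Rac1 (chr5:143505481-143527993) encodes the small GTPase that drives the branched actin of cell edges. WT libraries held 256 to 272 CPM (median 259) and miR-142 KO libraries 318 to 368 (median 333). CP CML libraries held 283 to 303 CPM (median 291) and BC CML libraries 323 to 358 (median 348). The spread within each group was small, with coefficients of variation of 2.36% to 5.85%, and neither pair of groups overlapped. Its increases were accordingly modest but clear of the spread, with log2 fold changes of 0.38 (SE 0.04, edgeR adjusted p = 7.97e-08) and 0.24 (SE 0.04, edgeR adjusted p = 3.07e-05).

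Itgav (chr2:83724397-83806917) encodes the integrin alpha V chain, which pairs with several beta chains to bind RGD-bearing matrix proteins and latent TGF-beta. It had the smallest adjusted p of the 9 in both comparisons on loss of miR-142. Its level was 39.6 to 46.8 CPM (median 41.4) in WT and 85.9 to 95.04 (median 87.4) in miR-142 KO. It was 38.8 to 48.5 CPM (median 42.5) in CP CML and 90.2 to 111 (median 104) in BC CML. WT and CP CML overlapped throughout and both lay far under the miR-142-/- groups. The log2 fold changes were 1.08 (SE 0.06, edgeR adjusted p = 2.19e-12) and 1.23 (SE 0.06, edgeR adjusted p = 1.13e-13).

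Gnaq (chr19:16132831-16387453) encodes the alpha subunit of Gq, which activates phospholipase C beta. Its level was 92.9 to 112 CPM (median 97.8) in WT and 111 to 143 (median 123) in miR-142 KO, where the lowest KO library lay just below the highest WT library. In CP CML it was 86.6 to 96.4 CPM (median 93.4) and in BC CML 109 to 124 (median 116), with no overlap. The log2 fold changes were 0.34 (SE 0.06, edgeR adjusted p = 5.71e-05) and 0.33 (SE 0.06, edgeR adjusted p = 8.88e-05).

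Adcy9 (chr16:4284886-4420498) encodes a membrane adenylyl cyclase, an enzyme that makes cyclic AMP. It was the member that did not rise with loss of miR-142 on either background. WT libraries held 40.0 to 59.0 CPM (median 43.7) and miR-142 KO libraries 26.7 to 49.98 (median 41.4). CP CML libraries held 29.2 to 35.0 CPM (median 32.3) and BC CML libraries 22.9 to 31.7 (median 25.5). Both pairs overlapped, and all CP CML libraries lay below all WT libraries. The log2 fold change was -0.19 (95% interval -0.44 to 0.05, edgeR adjusted p = 0.218) in normal and -0.30 (95% interval -0.55 to -0.05, edgeR adjusted p = 0.0566) in BCR-ABL LSKs. The second value lies at the threshold: with DESeq2 the adjusted p was 0.0370 and in an edgeR fit of the 12 BCR-ABL libraries alone 0.00771. It also passed in 7 of the 24 fits with 1 mouse left out, those without WT replicates 3 or 4, miR-142 KO replicates 3 or 5, CP CML replicates 2 or 4 or BC CML replicate 3, with log2 fold changes from -0.38 to -0.31.

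Tgfbr1 (chr4:47353222-47414924) encodes the type I TGF-beta receptor, the kinase that phosphorylates Smad2 and Smad3. Its level was 67.7 to 80.5 CPM (median 75.9) in WT and 111 to 138 (median 125) in miR-142 KO. In CP CML it was 75.3 to 105 CPM (median 89.0) and in BC CML 164 to 253 (median 192). BC CML lay above all other groups without overlap, its highest library, a female, standing apart from the next at 197. The log2 fold changes were 0.73 (SE 0.09, edgeR adjusted p = 9.87e-07) in normal and 1.14 (SE 0.09, edgeR adjusted p = 1.16e-09) in BCR-ABL LSKs.

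Leaving out each of the 24 mice in turn, the number of members called was 7 each time in normal LSKs and 8 or 9 in BCR-ABL LSKs.

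The difference between the effects of miR-142 loss, the BCR-ABL effect minus the normal effect, passed the test in 1 of the 9 genes, Cfl2, against 1.91% of all tested genes higher and 2.08% lower. In Cfl2 the difference was 0.53 on the log2 scale (SE 0.14, edgeR adjusted p = 0.0329). The means of miR-142 KO (105 CPM) and BC CML (106 CPM) were close, while that of CP CML (25.6 CPM) was below that of WT (36.7 CPM). With 1 mouse left out the call was kept in 7 of 24 fits, with adjusted p of 0.00281 to 0.0816 by edgeR; it was lost on leaving out any single one of WT replicates 1, 2, 4, 5 and 6, miR-142 KO replicates 1, 2 and 6, CP CML replicates 1 to 4, and BC CML replicates 1, 2, 3, 4 and 6. The likelihood ratio test and DESeq2 called 2 members higher, Cfl2 and Tgfbr1, and no tool called a member lower, where 1 was lower and 3 higher at an unadjusted p of 0.05. Among females the difference was 0.83 (edgeR adjusted p = 0.00609) and among males 0.27 (edgeR adjusted p = 0.582). Tgfbr1 followed with a difference of 0.41 (edgeR adjusted p = 0.0642), which DESeq2 placed past the threshold (adjusted p = 0.0363), as did edgeR without CP CML replicate 6 (adjusted p = 0.0464) or BC CML replicate 3 (adjusted p = 0.0457). Rock2 differed by 0.23 (edgeR adjusted p = 0.0813) and Wasl by 0.29 (edgeR adjusted p = 0.278), while Twf1 and Gnaq gave 0.01 and -0.01 with intervals of -0.19 to 0.22 and -0.18 to 0.16.

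**Figure D2:**
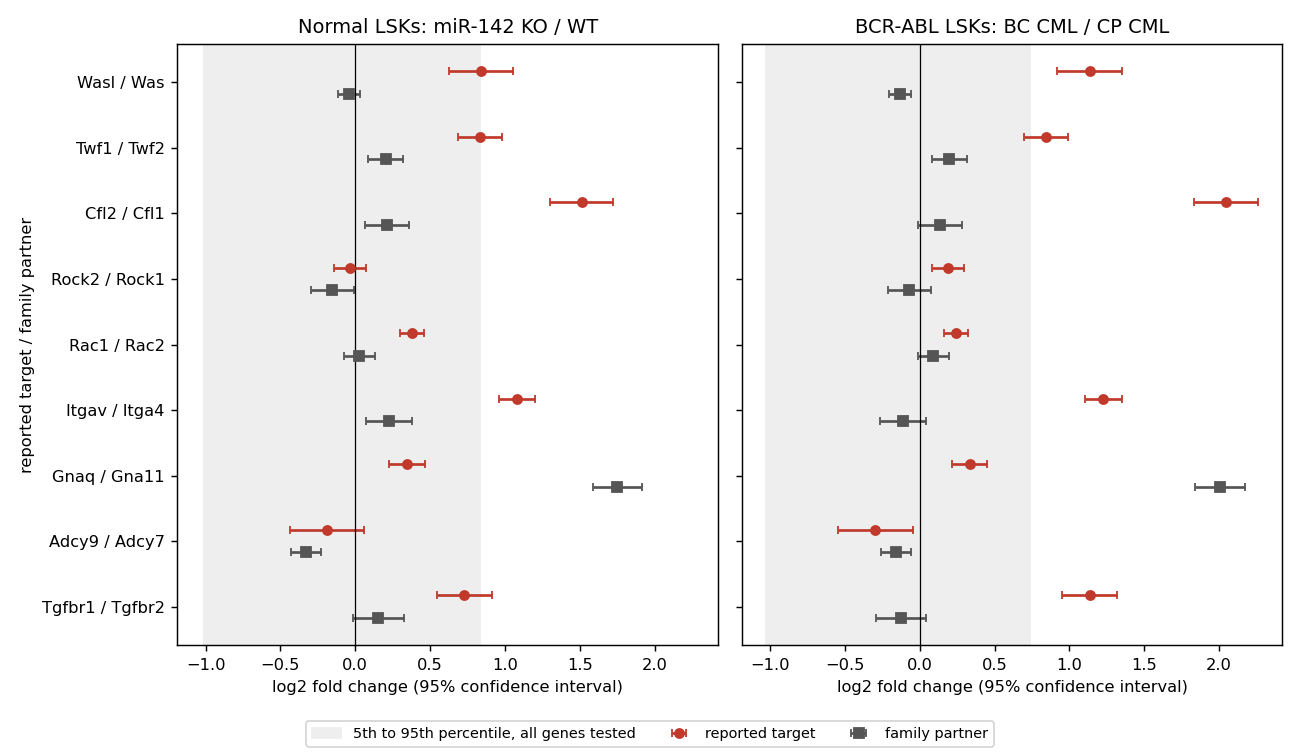
Log2 fold change with its 95% confidence interval of each reported target (red circles) and of a partner from the same family (grey squares) on loss of miR-142, in normal LSKs on the left and BCR-ABL LSKs on the right. The grey band spans the 5th to 95th percentile of all genes tested; the target lies to the right of its partner in each pair except Gnaq and Gna11 and, in BCR-ABL LSKs, Adcy9 and Adcy7.

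With BCR-ABL the 9 genes moved in both directions. In CP CML against WT, with miR-142 present, 3 rose (Twf1 by 0.39, Tgfbr1 by 0.26 and Rac1 by 0.15 on the log2 scale) and 4 fell, beside 22.5% higher and 22.9% lower among all tested genes. Adcy9 fell by 0.54 (edgeR adjusted p = 0.000970), Cfl2 by 0.51 (edgeR adjusted p = 0.000333), Wasl by 0.31 (edgeR adjusted p = 0.0186) and Rock2 by 0.21. The call for Wasl was lost on leaving out WT replicate 1 or any of CP CML replicates 1 to 4, with edgeR adjusted p of 0.0539 to 0.0620. Within 1 sex, Twf1, Rac1 and Tgfbr1 did not pass in females (0.31, 0.13 and 0.22) nor Wasl, Cfl2, Rock2 and Rac1 in males (-0.18, -0.36, -0.16 and 0.17), and Adcy9 passed in both. Itgav and Gnaq gave 0.05 (95% interval -0.07 to 0.17) and -0.11 (95% interval -0.23 to 0.01).

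In BC CML against miR-142 KO, with miR-142 absent, Tgfbr1 (0.67, edgeR adjusted p = 5.65e-06), Twf1 (0.40, edgeR adjusted p = 0.000187) and Itgav (0.19, edgeR adjusted p = 0.0103) rose and Adcy9 fell by 0.64 (edgeR adjusted p = 0.000316), beside 20.3% higher and 19.3% lower among all tested genes. In females alone Adcy9 gave -0.39 (edgeR adjusted p = 0.156) and Twf1 0.28 (edgeR adjusted p = 0.164), whereas in males Adcy9 fell by 0.87 (edgeR adjusted p = 0.00105) and Twf1 rose by 0.52. Itgav did not pass in either sex alone, with 0.19 in both (edgeR adjusted p = 0.164 in females and 0.0886 in males), and Tgfbr1 passed in both. For Wasl, Cfl2, Rock2 and Rac1 the log2 fold change was within 0.02 of 0, with 95% intervals of -0.23 to 0.19, -0.18 to 0.22, -0.09 to 0.12 and -0.07 to 0.09. Both comparisons use the same libraries as those on miR-142 loss. Set side by side, Twf1 and Tgfbr1 were higher with BCR-ABL whether or not miR-142 was present, and Adcy9 was lower in both. Cfl2 and Wasl were lower with BCR-ABL when miR-142 was present and near their miR-142 KO level when it was not. For Wasl the direct test of that difference did not pass (0.29, edgeR adjusted p = 0.278), and for Cfl2 it passed with the limits given above.

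Each member was set beside a partner of the same family. Gna11, the close relative of Gnaq that encodes the G11 alpha subunit, had 3 8mer sites for 3p and rose more than any member in normal LSKs and almost as much as Cfl2 in BCR-ABL LSKs. Its level was 22.9 to 33.9 CPM (median 25.9) in WT and 83.1 to 102 (median 91.8) in miR-142 KO, and 24.5 to 28.2 (median 25.4) in CP CML and 96.1 to 107 (median 105) in BC CML. Its log2 fold changes were 1.75 (SE 0.08, edgeR adjusted p = 7.92e-14) and 2.01 (SE 0.08, edgeR adjusted p = 4.46e-15), against 0.34 and 0.33 in Gnaq with its single 8mer. The sites are shown with the same marking.
Gna11 8mer 1, chr10:81530223-81530252, minus strand: agccaggtgacACACTACAgggtctagtga
Gna11 8mer 2, chr10:81529803-81529832, minus strand: gctgctcatatACACTACAgtgtctatctg
Gna11 8mer 3, chr10:81529465-81529494, minus strand: tgccatcccatACACTACAgagctacatgg

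Per gene length, Gnaq made up 67.9% ± 2.50 (SD, n = 6) of the summed level of Gnaq and Gna11 in WT and 44.2% ± 3.62 in miR-142 KO. With BCR-ABL the share was 67.5% ± 1.33 in CP CML and 39.5% ± 1.59 in BC CML. The order of the pair was thus exchanged: Gnaq was the larger in every miR-142+/+ library, at 64.4% or more, and Gna11 in every miR-142-/- library, with Gnaq at 49.2% or less.

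Of the other 8 partners, 3 rose and 1 fell in normal LSKs, beside 19.9% higher and 16.4% lower among all tested genes. In BCR-ABL LSKs 1 rose and 2 fell, beside 20.4% higher and 17.6% lower. Was, the blood cell relative of Wasl, gave -0.045 (edgeR adjusted p = 0.337) in normal LSKs and fell by 0.13 (edgeR adjusted p = 0.00456) in BCR-ABL LSKs. Twf2 rose by 0.20 in both (edgeR adjusted p = 0.00694 and 0.00769). Cfl1, the main cofilin of these cells, rose by 0.21 in normal LSKs (edgeR adjusted p = 0.0230) and gave 0.14 (edgeR adjusted p = 0.134) in BCR-ABL LSKs. Rac2, Rock1 and Tgfbr2 did not pass the test in either comparison, with values between -0.15 and 0.15. None of these 6 partners had a 3p site in the UTR read. Itga4 had 3 sites without an 8mer and rose by 0.22 in normal LSKs (edgeR adjusted p = 0.0208), with -0.11 (edgeR adjusted p = 0.234) in BCR-ABL LSKs. Adcy7, with 2 7mer-A1 sites, fell by 0.33 (edgeR adjusted p = 1.23e-05) and 0.16 (edgeR adjusted p = 0.0107).

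**Figure D3:**
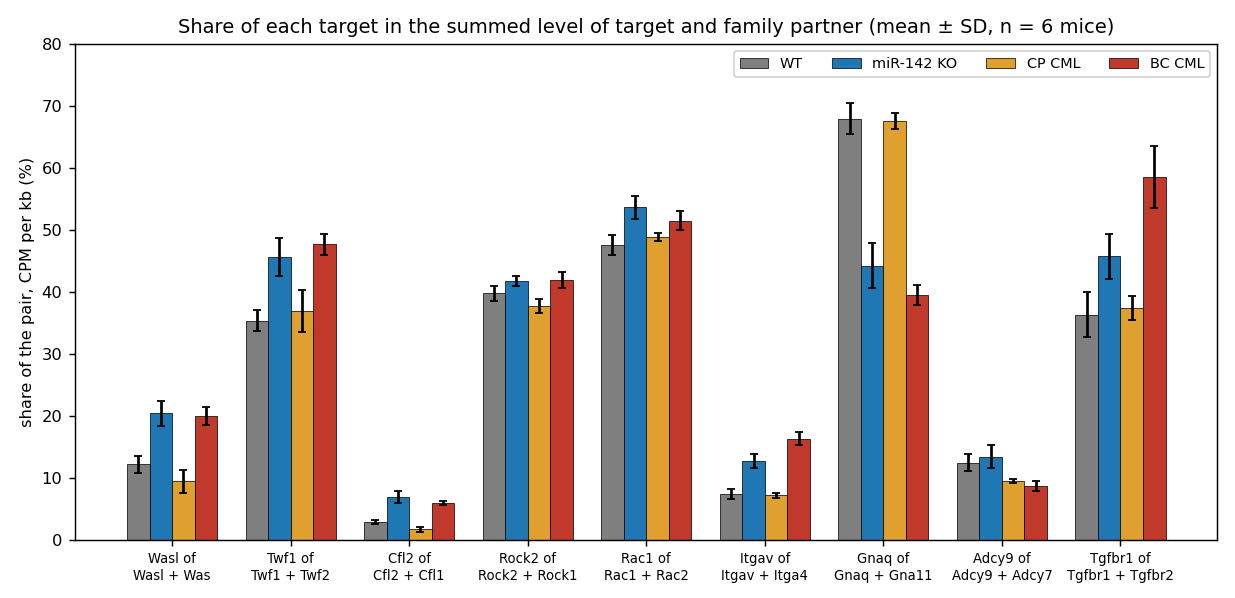
Share of each target in the summed level, in CPM per kilobase of gene model, of itself and its family partner, as the mean ± SD of 6 mice in each group. Gnaq falls from 67.9% to 44.2% and from 67.5% to 39.5% on loss of miR-142, while Cfl2 rises but stays under 10%.

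Cfl2 remained a small part of the cofilin pair even after its rise, going from 2.88% ± 0.34 (SD, n = 6) to 6.88% ± 0.99 of Cfl2 plus Cfl1 in normal LSKs and from 1.65% ± 0.46 to 5.90% ± 0.32 with BCR-ABL. Tgfbr1 went from 36.3% ± 3.64 to 45.8% ± 3.63 of the receptor pair in normal LSKs. With BCR-ABL it went from 37.4% ± 1.90 to 58.6% ± 5.05, so that the type I chain was the more abundant mRNA in BC CML. Wasl rose from 12.2% to 20.4% and from 9.41% to 20.0% of Wasl plus Was, and Itgav from 7.42% to 12.7% and from 7.16% to 16.3% of Itgav plus Itga4. Rock2 went from 39.8% to 41.7% and from 37.7% to 42.0% of Rock2 plus Rock1, and Adcy9 from 12.4% to 13.4% and from 9.44% to 8.65% of Adcy9 plus Adcy7. The remaining pairs, Twf1 with Twf2 and Rac1 with Rac2, moved from 35.4% to 45.7% and from 47.6% to 53.7% in normal LSKs.

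Ordered by CPM per kilobase, Rac1 stood first in all 4 groups, at 113 in WT and 126 in CP CML and, without miR-142, at 147 (no BCR-ABL) and 148 (BCR-ABL), with no overlap with the next gene. Cfl2 moved furthest: it was 5th in WT (12.5 CPM per kilobase, overlapping with Tgfbr1 at 12.4) and 2nd in miR-142 KO (35.6, overlapping with Twf1 at 32.6), and 6th in CP CML (8.74, overlapping with Wasl at 7.04) and 3rd in BC CML (36.1, overlapping with Twf1 above at 42.9 and Tgfbr1 below at 32.7). Rock2 was 2nd in WT at 24.6 and 5th in BC CML at 24.2, at nearly the same level. The lowest of the 9 was Itgav in WT, at 4.36 CPM per kilobase, and Adcy9 in the other 3 groups, at 3.35 to 5.22. In CP CML the lowest pair, Itgav and Adcy9, overlapped.

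**Figure D4:**
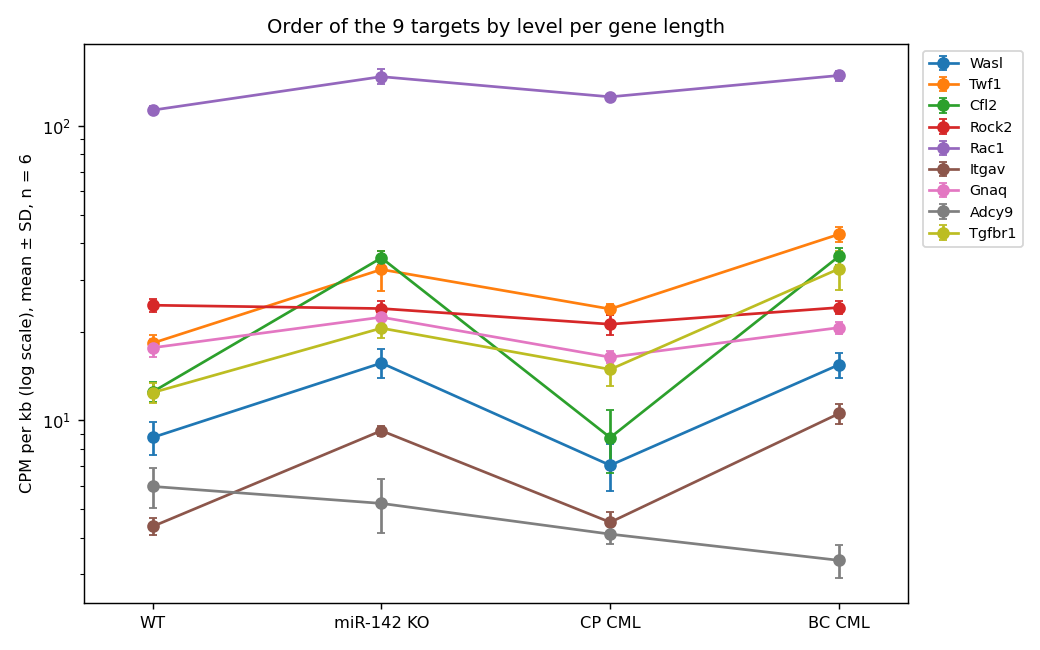
Level of the 9 genes in CPM per kilobase of gene model on a log axis, as the mean ± SD of 6 mice in each of the 4 groups, with lines joining the points of a gene. Rac1 is highest throughout, from 113 to 148, and Cfl2 crosses several genes between the miR-142+/+ and the miR-142-/- groups.

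The members could be read against all genes with a 3p site. Of the 390 tested genes with an 8mer, 37.9% rose in miR-142 KO against WT and 41.8% in BC CML against CP CML, where 19.5% and 19.8% of the 11105 genes without a 3p site did so. Their median log2 fold changes were 0.11 and 0.15, and those of the genes without a site 0.01 both times. Genes with an 8mer also had longer UTRs, with a median of 2482 bases against 1044. For 5p the shares lay closer together: 20.1% and 22.7% of the 2954 genes with a 5p site rose, and 21.1% and 20.8% of those without. These shares include the members and are a description.

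Among the 390 genes ranked by log2 fold change, Cfl2 was 18th in normal and 3rd in BCR-ABL LSKs, Itgav 31st and 24th, Twf1 47th and 48th, and Tgfbr1 59th and 28th. Rac1 (100th and 153rd) and Gnaq (110th and 112th) stood lower, and Rock2 was 264th and 171st. Rock2, with an 8mer and a 7mer, had the smallest change of the 8 members with a site, whereas Wasl, with 4 sites but no 8mer, had a log2 fold change close to that of Twf1 in normal LSKs.

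**Figure D5:**
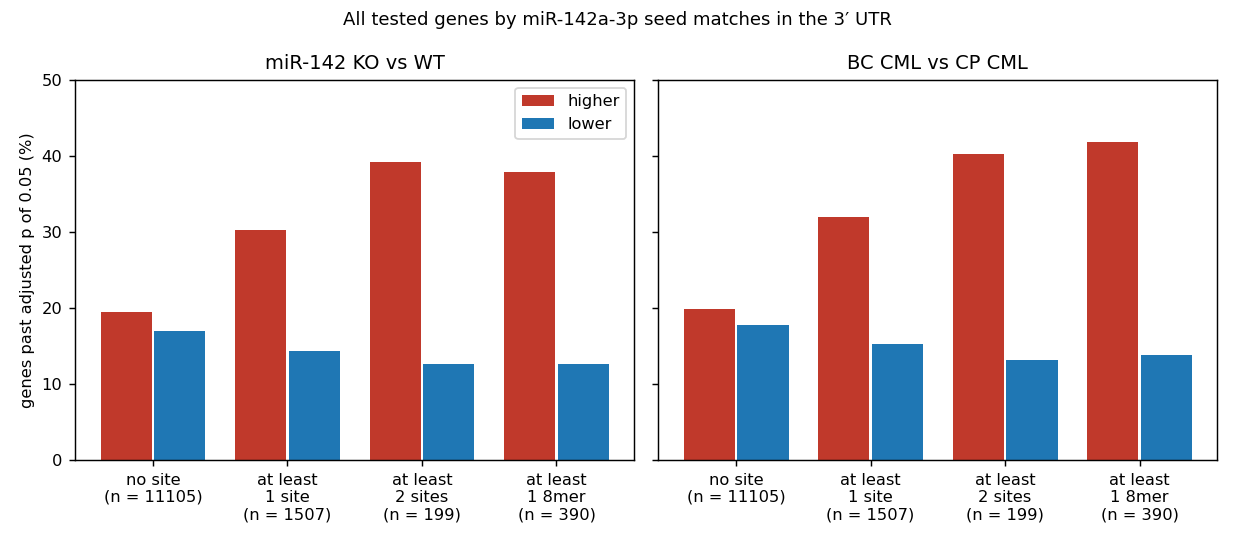
Percentage of tested genes that rose (red) or fell (blue) past an adjusted p of 0.05 on loss of miR-142, by the number and kind of miR-142a-3p seed matches in the longest 3′ UTR, in normal LSKs on the left and BCR-ABL LSKs on the right. The share that rose is 19.5% and 19.8% without a site and 37.9% and 41.8% with an 8mer.

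For each member the named gene with the most similar profile was found as the smallest root mean square difference of log2 CPM, centred on each gene's mean over the 24 libraries. It was Nxt2 for Wasl (0.16 log2 units), Mgat4b for Twf1 (0.14), Gna11 for Cfl2 (0.26), Pafah1b1 for Rock2 (0.06), Ipmk for Rac1 (0.06), Rab12 for Itgav (0.10), Elf2 for Gnaq (0.09), Lzts2 for Adcy9 (0.12) and Tmtc3 for Tgfbr1 (0.18). The likeness of Cfl2 and Gna11 was the loosest of these, although the profile of Cfl2 itself varied most, with an SD of 0.93. Rab12 followed Itgav closely, with means of 37.1 CPM in WT and 36.3 in CP CML against 73.8 in miR-142 KO and 83.4 in BC CML.

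In the wider pathways, whose counts include the members themselves, genes moved both ways, and their counts stand beside 19.9% higher and 16.4% lower among all tested genes in normal LSKs and 20.4% higher and 17.6% lower in BCR-ABL LSKs. Of 28 tested genes of the WASP family and Arp2/3 nucleation list, 9 rose and 3 fell in normal LSKs and 9 rose and 6 fell in BCR-ABL LSKs, with medians of -0.03 and 0.01. Actr3, a core subunit of Arp2/3, rose by 0.36 and 0.19, whereas Hcls1, the cortactin relative of blood cells, fell by 0.39 and 0.35. Of 28 genes that handle actin monomers, severing and capping, 10 rose and 3 fell, and 8 rose and 6 fell. Dstn, the actin depolymerizing factor and a further member of the cofilin family, rose by 1.32 (edgeR adjusted p = 4.10e-07) and 0.91 (edgeR adjusted p = 4.32e-05), from 56.3 to 141 CPM and from 115 to 216. Ssh2, a phosphatase that activates cofilins, fell by 0.33 and 0.65.

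Of 30 Rac and Cdc42 genes, 11 rose and 2 fell, and 7 rose and 8 fell. Pak4, a kinase downstream of Cdc42, rose by 0.54 and 0.72, and Dock2, the main activator of Rac in leukocytes, gave -0.10 (edgeR adjusted p = 0.140) in normal LSKs and fell by 0.24 in BCR-ABL LSKs.

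Of the pathway lists given here that of integrins and their adaptors had the largest share of calls in normal LSKs: 16 of 32 tested genes rose and 5 fell, with a median log2 fold change of 0.28, and in BCR-ABL LSKs 9 rose and 5 fell, with a median of 0.11. Itgb3, the beta 3 chain that pairs with alpha V and also marks megakaryocytes, rose by 1.74 (edgeR adjusted p = 5.83e-07), from 33.5 to 112 CPM on average, in normal LSKs. In BCR-ABL LSKs it gave 0.49 (edgeR adjusted p = 0.0554). The beta 5 chain went the other way in normal LSKs: Itgb5 fell by 0.97 (edgeR adjusted p = 0.000194), from 29.3 to 14.9 CPM. With BCR-ABL the means of Itgb5 were 27.4 CPM in CP CML and 22.9 in BC CML. Itga5, the fibronectin receptor chain, rose by 0.43 and 0.47, whereas Itga9 fell by 1.21 and 0.57 and Ptk2, which encodes focal adhesion kinase, by 0.77 and 0.54. Itgb3 is also among the megakaryocyte markers whose summed level is given above, and the part of those cells in its change was not tested.

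Of 20 Gq and phospholipase C genes, 8 rose and 1 fell in normal and 7 rose and 2 fell in BCR-ABL LSKs, with medians of 0.18 and 0.15. Beside Gna11, Plcb3, a phospholipase C that Gq activates, rose by 0.77 and 0.73, from 51.0 to 87.1 CPM and from 52.6 to 87.2. Gna14, a further Gq family subunit, rose by 1.23 and 0.58, and Gng2, a gamma subunit, fell by 0.37 and 0.46. Of 25 adenylyl cyclase and cyclic AMP genes 5 rose and 5 fell in normal and 4 rose and 6 fell in BCR-ABL LSKs, close to the shares of all tested genes in normal LSKs. Rapgef3, which encodes the cyclic AMP sensor Epac1, rose by 0.94 and 0.56 and Pde3b, a phosphodiesterase, by 0.54 and 0.45, while Adcy3 fell by 0.33 and 0.37.

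Of 29 TGF-beta receptor and SMAD genes, 8 rose and 7 fell in normal and 6 rose and 8 fell in BCR-ABL LSKs, with medians of 0.06 and -0.06. Bmpr1a, a type I receptor for bone morphogenetic proteins, rose by 1.99 and 1.85 from a low level of 1.05 and 1.41 CPM, and Smad5 by 0.44 and 0.68. Tgfbr3, the co-receptor betaglycan, fell by 0.61 and 0.91, and Smad1 by 0.26 and 0.37. Of 18 genes that respond to TGF-beta in many cells, 6 rose and 1 fell in normal LSKs, and 2 rose and 1 fell in BCR-ABL LSKs. Pmepa1 rose in both, by 0.74 and 1.66, from a mean of 1.75 to 2.93 CPM in normal LSKs. Smad7, an inhibitor induced by the pathway, gave -0.36 (edgeR adjusted p = 0.144) in normal LSKs and fell by 0.60 (edgeR adjusted p = 0.0139) in BCR-ABL LSKs.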

How the data were processed

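RNA-seq libraries had been made from sorted bone marrow LSKs with an mRNA kit. The deposited table of the authors holds raw read counts; per the labels and the methods, reads were trimmed with Trimmomatic, mapped to mm10 with STAR 2.6.0 and counted with HTSeq 0.11.1. The annotation and the strand setting are not given in the sources used here, so reads of overlapping or antisense genes cannot be told apart, and near-identical stretches of related genes could divide reads. A further column gives gene length in kb and was used for CPM per kb. The labels give 6 mice per group, the methods 5; all 24 columns of counts were matched to 1 mouse each. That samples of a group came from separate mice is taken from their labels.

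Genes were kept with filterByExpr and tested in 1 fit of all 24 libraries with edgeR 4.0.16 (TMM, quasi-likelihood F test, R 4.3.3), two-sided, with Benjamini-Hochberg adjustment over 13520 genes and a threshold of 0.05. The alternatives were the likelihood ratio test, DESeq2 1.42.0, RLE and upper quartile normalization, no filter or at least 1 CPM in 6 libraries, sex as a covariate, the 12 libraries compared alone, each sex alone and each mouse left out. The fits were tested on simulated counts. Log2 CPM for profile likeness used a prior count of 2. Genes named beside the members were Mir142, the partners, the most alike genes and, in each pathway list, at most 3 called higher and 3 called lower with the smallest p on loss of miR-142, on either background. The 9 genes, their partners, the pathway and marker lists and the tests were chosen with earlier results of these data known. The result of 1 pathway list is not reported here.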

Additional observations from a re-analysis of the deposited data

Results flagged for a closer look

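In the 36 groups of 6 mice formed by the 9 genes and 4 groups, the gap of 1 library to its neighbours was large for its group on 2 occasions; chance alone gives about 1 in 20 such groups. Twf1 was at 126 CPM in miR-142 KO replicate 3, a female, where the other 5 mice held 88.1 to 94.9 CPM. Tgfbr1 was at 253 CPM in BC CML replicate 1, also a female, where the other 5 held 164 to 197 CPM. Over the 24 fits that each left out 1 mouse, the log2 fold change on loss of miR-142 was 0.75 to 0.86 for Twf1 in normal LSKs and 1.04 to 1.17 for Tgfbr1 in BCR-ABL LSKs.

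The effect of miR-142 loss on Cfl2 was larger by 0.53 on the log2 scale in BCR-ABL than in normal LSKs, which was tested as a contrast of the 4 groups (edgeR quasi-likelihood adjusted p = 0.0329). The call lies near the threshold: it was kept in 7 of 24 fits with 1 mouse left out. In males alone the difference was 0.27 (edgeR adjusted p = 0.582).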

How the results depend on the processing

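Direction and call of all 9 members were kept in 90 of 90 log2 fold changes over the 10 alternative settings of miR-142 KO against WT, those that leave out 1 mouse not counted. In BC CML against CP CML 83 of 90 were kept, 2 lost their call (Rock2 in each sex alone) and 5 gained one (Adcy9). Of CP CML against WT 82 of 90 were kept, of BC CML against miR-142 KO 79 of 90 and of the difference of effects 74 of 81. The number of members called was 4 in females and 3 in males for CP CML against WT (7 with all mice), 1 in females for BC CML against miR-142 KO (4 with all mice), and for the difference 2 by the likelihood ratio test, 2 by DESeq2 and 0 in males. With 1 mouse left out it was 7 in normal LSKs, 8 to 9 in BCR-ABL LSKs, 6 to 7 for CP CML against WT, 4 to 5 for BC CML against miR-142 KO and 0 to 2 for the difference.

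Gnaq in BC CML against miR-142 KO gained a call without miR-142 KO replicate 3 (-0.16) and Rac1 in the difference without miR-142 KO replicate 5 (-0.18). Of the 18 TGF-beta response genes, 3 were called in BC CML against CP CML, and 5 by DESeq2, 5 with sex as a covariate and 10 in the fit of 12 libraries. Of the 28 nucleation genes, 12 were called in miR-142 KO against WT and 7 in the fit of 12 libraries. With a single sex, the counts of most of the pathway lists moved by more than 1.5 times on at least 1 background.

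Signs turned only for values that had not passed the test. Itgav in CP CML against WT was -0.017 in females. In BC CML against miR-142 KO, upper quartile normalization gave -0.017 for Cfl2, -0.024 for Rock2 and -0.021 for Rac1, females gave 0.075 for Wasl, and males -0.089 for Cfl2 and -0.028 for Rock2. Leaving out 1 mouse gave -0.072 to 0.027 for Wasl, -0.019 to 0.033 for Cfl2, -0.023 to 0.016 for Rock2 and -0.019 to 0.022 for Rac1. For the difference, Twf1 was -0.0081 with a filter of 1 CPM in 6 libraries and -0.0345 in females, Gnaq 0.10 and Adcy9 0.12 in females, and with 1 mouse left out Twf1 was -0.035 to 0.080 and Gnaq -0.074 to 0.028. The causes were not tested. No paired analysis was possible because the replicate numbers are in accession order and link no mice. Each sex alone leaves 3 mice a group, which limits what those fits can call, and genes counted without a known strand setting carry that doubt into every value.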
